A study of Homo sapiens with 9 samples.

Results

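The mRNAs of 49 genes for translation initiation, elongation and termination factors were followed in MDA-MB-231 cells treated with Compound Kushen Injection (CKI) or with an injection of either herb that goes into it. The genes were picked by symbol, at a time when earlier results of these data were known, and make up 49 of the 24344 genes in the deposited count table. They hold 5 factors of start site selection and subunit joining, the 3 subunits of eIF2, the 5 subunits of its exchange factor eIF2B, 13 subunits of eIF3 and 8 eIF4 factors. The others are 2 eIF4E-binding proteins, 2 poly(A)-binding proteins, 8 genes of elongation, 2 of termination and TPT1, a growth-related gene. MDA-MB-231 is an established cell line from a human breast adenocarcinoma. The CKI group received the injection made of Kushen and Baituling at 2.0 mg/mL, the Kushen group an injection of Kushen alone and the Baituling group an injection of Baituling alone, each single herb dosed in proportion to CKI. All cells were collected after 48 h, and total RNA was sequenced as unstranded paired-end libraries. Each treatment had 3 libraries, described by the submitters as biological replicates, all of this 1 cell line. Untreated libraries are not analysed here, so every difference below lies between 2 treatments and has no untreated level beside it.

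Translation starts when eIF4E binds the cap of an mRNA and, with the scaffold eIF4G and the helicase eIF4A, recruits the small ribosomal subunit. The subunit carries eIF3 and the initiator tRNA delivered by eIF2, which eIF2B recharges with GTP. The eEF1 factors then bring aminoacyl-tRNA to the ribosome and eEF2 moves it along the mRNA. The mRNAs of ribosomal proteins, of most elongation factors and of a few initiation factors begin with a C and a run of pyrimidines, the terminal oligopyrimidine (TOP) motif. Translation of TOP mRNAs depends on the growth-sensing kinase complex mTORC1, which also phosphorylates the eIF4E-binding proteins and acts through the RNA-binding protein LARP1.

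The first transcribed bases show which of these genes carry such a start. RefSeq starts on assembly GRCh38.p14 were available for 39 of the 49 genes. A pyrimidine start was defined as a C at the first transcribed base followed by at least 4 bases that are each C or T, read on the transcribed strand. It was found in 11 of the 39 genes and in 5.14% of the 27305 genes in the RefSeq table. Of 11 genes listed as TOP mRNAs from textbook knowledge (EEF1A1, EEF1B2, EEF1D, EEF1G, EEF2, EIF3E, EIF3F, EIF3H, EIF4B, PABPC1 and TPT1), 7 had an entry and 6 of these a pyrimidine start, EEF1G being without. Among initiation factors outside that list it was found in 5 of 26 (EIF2S3, EIF3D, EIF3K, EIF3M and EIF4A2), and in 0 of 6 other genes. A gene with several starts was counted where any of them had the run. Each line below gives 10 bases before a start and the first 20 bases of the first exon, with the pyrimidine run in capitals. The first 6 genes are listed TOP mRNAs, the next 2 are initiation factors outside the list with a pyrimidine start, and the last 3 are initiation factors with another start, shown for contrast.
EEF1A1 (chr6:73521013-73521042, minus strand): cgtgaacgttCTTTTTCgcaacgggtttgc
EEF1B2 (chr2:206159885-206159914, plus strand): ctcttcgggtCCTTTTTCCTCTCTTCagcg
EEF2 (chr19:3985444-3985473, minus strand): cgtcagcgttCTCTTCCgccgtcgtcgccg
TPT1 (chr13:45341164-45341193, minus strand): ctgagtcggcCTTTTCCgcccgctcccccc
EIF3F (chr11:7987327-7987356, plus strand): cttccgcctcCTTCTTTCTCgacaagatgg
EIF4B (chr12:53006446-53006475, plus strand): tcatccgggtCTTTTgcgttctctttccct
EIF3K (chr19:38619178-38619207, plus strand): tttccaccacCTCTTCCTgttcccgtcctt
EIF4A2 (chr3:186783567-186783596, plus strand): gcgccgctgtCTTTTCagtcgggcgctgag
EIF2S1 (chr14:67360318-67360347, plus strand): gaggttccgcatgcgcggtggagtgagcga
EIF2B1 (chr12:123633667-123633696, minus strand): gtacggaagtgcgccggaagtggggtgcgg
EIF4E (chr4:98929114-98929143, minus strand): tggagcggttgtgcgatcagatcgatctaa
The run was 16 bases long in EEF1B2, 10 in EIF3F and 5 in EIF4B. A match is a description of these letters and no measurement of how an mRNA was translated.

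Total counts ran from 20144628 to 23782071 per library. Levels are given as CPM, the counts of a gene relative to the TMM-scaled size of its library, and differences as log2 fold changes ± SE from edgeR's quasi-likelihood fit. Calls rest on an adjusted p under 0.05 in that fit. The CPM of a gene compares libraries and not genes, since long genes collect more reads, and as a share of the RNA it cannot tell fewer cells from less RNA per cell. Between 17555 and 17786 genes had a count in a CKI library, against 17017 to 17281 for Kushen and 16259 to 16379 for Baituling, and the TMM factors ran from 1.075 to 1.099, 1.024 to 1.047 and 0.877 to 0.899. Scaling by library totals shifted the overall median log2 fold change by 0.075 between CKI and Kushen, 0.29 between CKI and Baituling and 0.21 between Kushen and Baituling. Differences are stated relative to the TMM scale, and the part of these shifts in them was not tested. Of the markers of this line VIM, CD44, KRT8 and KRT18 were present, at group means of 127 to 2069.5 CPM. CDH1 and EPCAM, listed as low or absent in this line, were at 0.587 to 2.01 and 7.32 to 13.6 CPM, and the hormone receptor genes ESR1 and PGR had too few counts to be tested. The 4 markers that were present were lower than in Baituling in CKI and in Kushen, by medians of -1.29 and -1.06, and 3 of them were lower in CKI than in Kushen, with a median of -0.24. CDH1 and EPCAM were also lower than in Baituling, by -1.34 and -0.81 in CKI and -1.75 and -0.89 in Kushen. What the changes of these markers share with those of the factors was not tested.

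Of the 49 genes, 48 passed the filter on low counts. EEF1G, a subunit of the eEF1 exchange factor, had 0, 0 and 1 counts in the CKI libraries, 1, 0 and 0 in Kushen and 1, 1 and 2 in Baituling and was not tested. The annotation holds another protein-coding gene that overlaps EEF1G on the same strand. EIF4A1, the main eIF4A helicase, had between 68 and 244 counts per library and is overlapped on the same strand by the readthrough gene SENP3-EIF4A1. EIF3C had between 132 and 250 counts and has the near-identical copy EIF3CL. How the authors' counting treated reads that match several genes is not given in the sources used here, so the counts of these 3 genes cannot be taken as the level of their mRNA.

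CKI was compared with Kushen to see what Baituling adds to Kushen. In this comparison 17 of the 48 tested factors were lower in CKI, 3 were higher and 28 did not pass. Over all 14195 genes tested 39.8% passed, 20.2% lower and 19.6% higher. The factors' median log2 fold change was -0.065 against 0.0079 over all genes, and 0 of them passed with a log2 fold change beyond 1, against 1.90% of all genes. All 3 CKI libraries lay above all 3 Kushen libraries for 5 factors and below them for 19, against 25.2% and 24.2% of all genes. The 3 higher factors were EIF2B2 and, with the doubtful counts just described, EIF4A1 and EIF3C, without which 1 was higher. Of the 10 tested TOP mRNAs 9 were lower in CKI and 0 higher, with a median of -0.29, and EIF3H did not pass. Among the 30 initiation factors outside the TOP list 6 were lower and 3 higher, with a median of -0.035, and among the 8 other genes 2 were lower. With library totals 10 factors were lower and 9 higher, and 7 of the 10 TOP mRNAs remained lower while the initiation factors outside the list went to 1 lower and 8 higher, with a median of 0.040. Over all genes that scaling gave 4218 higher and 1837 lower calls in place of 2783 and 2869.

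CKI was compared with Baituling to see what Kushen adds to Baituling. Here 33 of the 48 factors were lower in CKI and 5 higher, where 76.1% of all genes passed, 37.0% lower and 39.1% higher. The CKI libraries lay above those of Baituling without overlap for 5 factors and below for 33, against 40.3% and 38.0% of all genes. The median was -0.32 against 0.034 over all genes. All 10 tested TOP mRNAs were lower, by a median of -0.61, and so were 19 of the 30 initiation factors outside the list, by a median of -0.20, against 3 higher. Among the 8 other genes 4 were lower and 2 higher. A log2 fold change beyond 1 was reached by EEF1B2, EIF6, EIF4EBP1 and EIF5A, all lower, and by EIF4A1, higher, which is 5 of 48 against 19.1% of all genes. EIF5A and EIF4EBP1 lay close to that fold, and 2 members were beyond it without CKI library 1 or without Baituling library 1. With library totals 19 factors were lower and 18 higher, with 8 of the 10 TOP mRNAs lower, and the initiation factors outside the list went to 8 lower and 14 higher, with a median of 0.087. All genes then gave 8094 higher and 3210 lower calls in place of 5548 and 5254.

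The direct comparison of the 2 herbs, Kushen against Baituling, gave 30 factors lower in Kushen and 7 higher, where 71.6% of all genes passed, 36.1% lower and 35.6% higher. Without overlap, Kushen lay above Baituling for 7 factors and below for 32, against 36.4% and 36.7% of all genes. The median was -0.26 against 0.018 over all genes. Of the TOP mRNAs 9 of 10 were lower, by a median of -0.35, and of the initiation factors outside the list 18 of 30 were lower and 5 higher, by a median of -0.22. Of the 8 other genes 3 were lower and 2 higher. EIF6 alone passed with a log2 fold change beyond 1, against 15.2% of all genes. With library totals 20 factors were lower and 18 higher, with 6 of the 10 TOP mRNAs lower and 1 higher and the initiation factors outside the list at 11 lower and 12 higher, by a median of -0.0072. All genes gave 7183 higher and 3486 lower calls in place of 5047 and 5121. The 3 comparisons share their libraries, so their counts are not independent of each other.

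**Figure D1:**
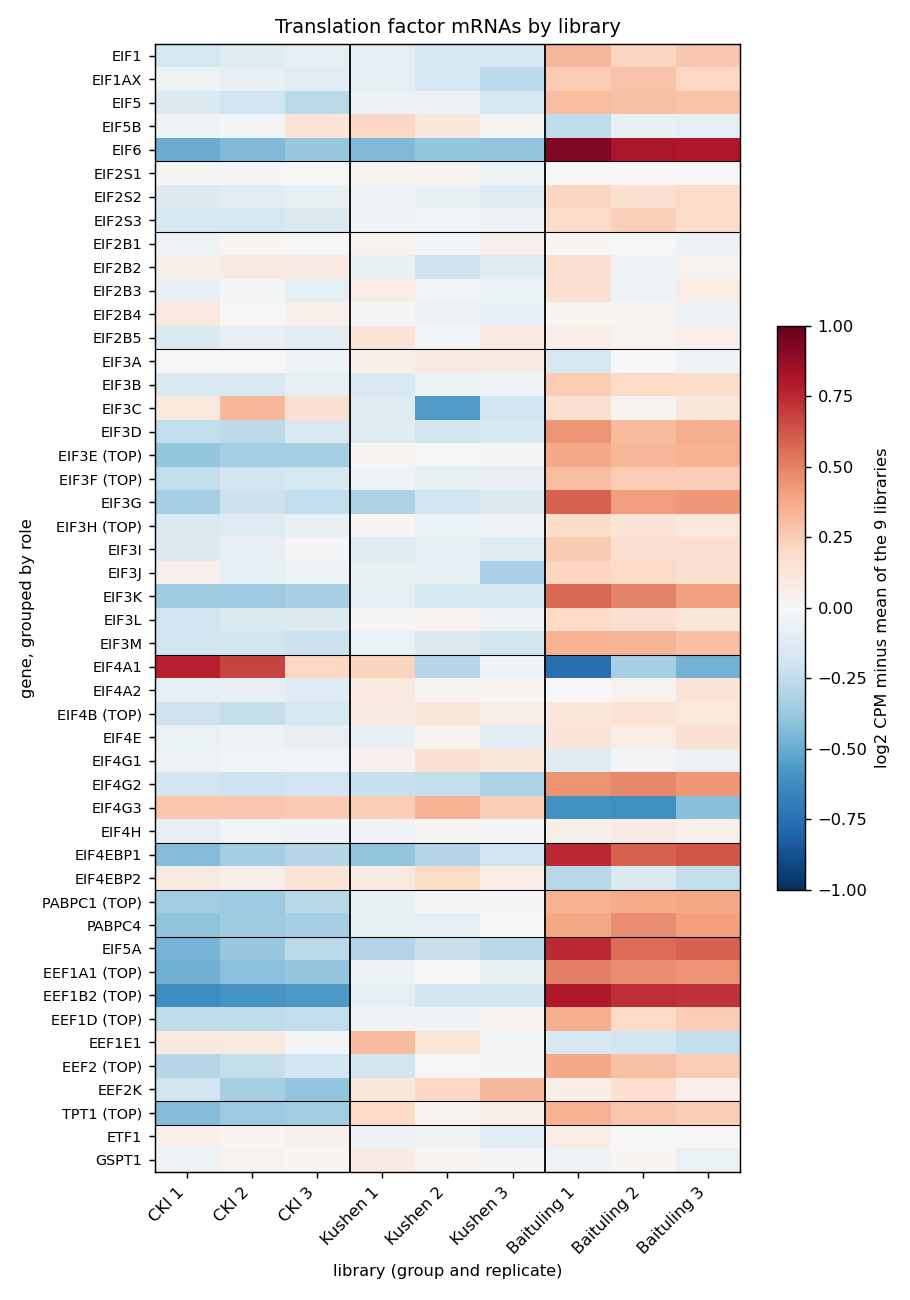
Log2 CPM of the 48 tested factors, each minus its mean over the 9 libraries, with libraries in columns by treatment and genes in rows by role, and listed TOP mRNAs marked. Many rows, EIF6 and EEF1B2 among them, are highest in Baituling, while EIF4G3, EIF4EBP2 and EIF4A1 are lowest in Baituling.

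**Figure D2:**
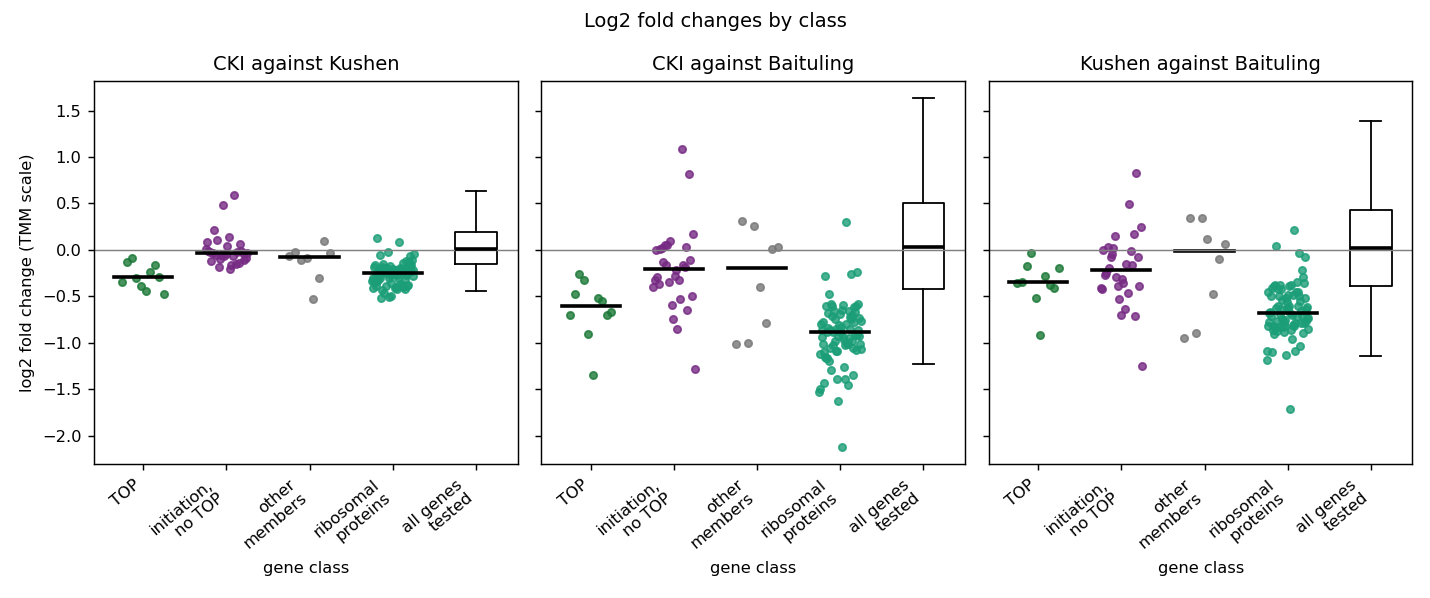
Log2 fold changes on the TMM scale in the 3 comparisons, with a point for each TOP mRNA, initiation factor outside the TOP list, other member and ribosomal protein gene, and a bar at each median. The box gives the quartiles of all 14195 genes and its whiskers the 5th and 95th percentiles, and the TOP medians lie at -0.29, -0.61 and -0.35.

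The gap between TOP mRNAs and the other initiation factors was measured within each library, where it does not depend on the scaling. For each library the mean log2 CPM of the 30 initiation factors outside the list was taken from that of the 10 TOP mRNAs. The value was 1.52, 1.54 and 1.58 in the CKI libraries, 1.81, 1.84 and 1.85 in Kushen and 2.01, 1.98 and 1.97 in Baituling. The groups did not overlap, with CKI lowest and Baituling highest. The means differed by -0.29 between CKI and Kushen, -0.44 between CKI and Baituling and -0.15 between Kushen and Baituling. Without EIF4A1 and EIF3C, left out after their counts were seen, the differences were -0.25, -0.38 and -0.14. Sorted by the pyrimidine start in place of the list, a sorting added after the data were seen, they were -0.27, -0.50 and -0.23. The level of the gap itself carries the lengths of the genes, so that only its change between libraries can be read.

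The 10 tested TOP mRNAs took 0.940% ± 0.017 of all counts under CKI, 1.13% ± 0.018 under Kushen and 1.33% ± 0.011 under Baituling (SD, n = 3). All members together took 1.82% ± 0.021, 2.00% ± 0.031 and 2.27% ± 0.012. The 81 cytosolic ribosomal protein genes, the classical TOP mRNAs, took 4.61% ± 0.081, 5.31% ± 0.15 and 7.57% ± 0.30. In each case the share was lowest in CKI and highest in Baituling, with no overlap of libraries. Of the 81 ribosomal protein genes 70 were lower in CKI than in Kushen and 0 higher, beside 20.2% of all genes lower, the median being -0.25, which is close to that of the TOP factors. Against Baituling 77 were lower and 1 higher in CKI, by a median of -0.88, and 77 lower and 1 higher in Kushen, by a median of -0.68, where 37.0% and 36.1% of all genes were lower. The ribosomal protein genes had larger median falls against Baituling than the TOP factors, whose medians there were -0.61 and -0.35, a difference that was not tested. A pyrimidine start was found in 48 of the 65 ribosomal protein genes with a RefSeq entry.

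**Figure D3:**
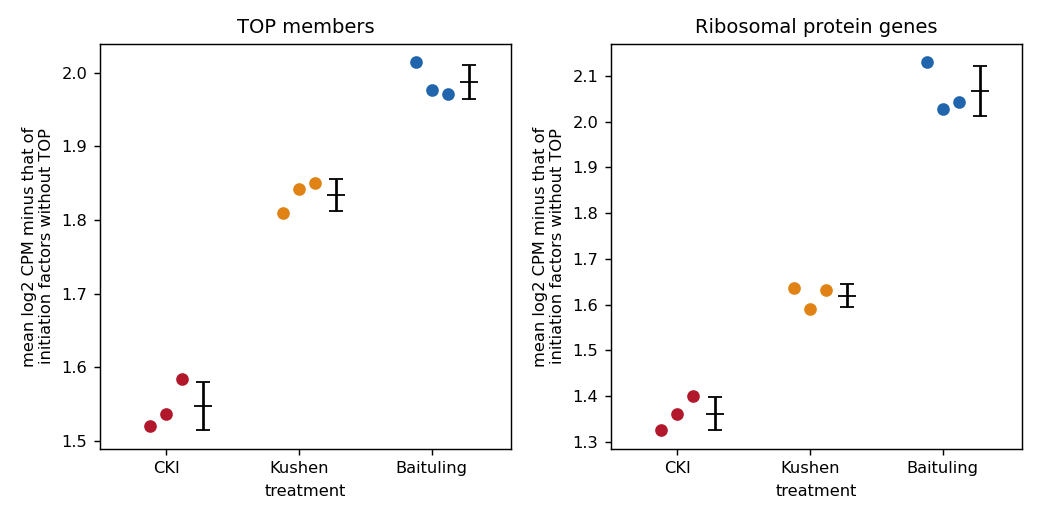
Mean log2 CPM of TOP factors (left) and of ribosomal protein genes (right) minus that of the initiation factors outside the TOP list, with a point for each library and bars at mean ± SD, n = 3. Both are lowest in CKI and highest in Baituling, at means of 1.55, 1.83 and 1.99 on the left and 1.36, 1.62 and 2.07 on the right.

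The start sequences printed above were set beside the changes. Of the 11 genes with a pyrimidine start 9 were lower in CKI than in Kushen and 0 higher, with a median of -0.17. Of the 21 initiation factors with another start 2 were lower and 3 higher, with a median of -0.012. Of all genes 20.2% were lower and 19.6% higher in this comparison. EIF3K, with a run of 8 bases and outside the TOP list, stood at 76.4, 76.2 and 78.0 CPM in the CKI libraries, 91.8, 87.3 and 87.6 in Kushen and 146, 138 and 130.1 in Baituling. Its CKI libraries lay below those of Kushen, by -0.21 ± 0.048 (adjusted p 0.00169). EIF2S1, with another start, stood at 197, 193 and 197 CPM in the CKI libraries, 200.1, 199.8 and 189 in Kushen and 197, 196 and 195 in Baituling, where the groups overlapped in every comparison. After a correction for transcript length and GC content EIF2S1 was below Baituling by -0.21 in CKI (adjusted p 1.26e-05) and -0.17 in Kushen (adjusted p 0.000124). Other genes with another start were not flat. Against Baituling EIF6 fell by -1.28 in CKI and -1.25 in Kushen, while EIF4G3 rose by 0.82 and 0.83. Against Baituling 11 of the 11 genes with a pyrimidine start were lower in CKI and 9 in Kushen, by medians of -0.54 and -0.38. For initiation factors with another start these counts were 11 of 21 in both, beside 3 and 4 higher, by medians of -0.12 and -0.16. Of all genes 37.0% and 36.1% were lower than in Baituling in CKI and in Kushen, and 39.1% and 35.6% higher.

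Of the 7 tested elongation genes 5 were lower in CKI than in Kushen and 0 higher, 6 were lower and 1 higher in CKI than in Baituling, and 5 were lower and 1 higher in Kushen than in Baituling. Of all genes 20.2%, 37.0% and 36.1% were lower and 19.6%, 39.1% and 35.6% higher in the same order. EEF1A1 (chromosome 6, 74199031 to 74235310, build GRCh37), which carries aminoacyl-tRNA to the ribosome, stood at 4879, 5079 and 5198 CPM in the CKI libraries, 6535, 6793 and 6456 in Kushen and 9661, 9366 and 9273 in Baituling. No library of a treatment overlapped another treatment, and the order was CKI, Kushen, Baituling. Its log2 fold change was -0.38 ± 0.038 in CKI against Kushen (adjusted p 3.01e-07), -0.90 ± 0.039 in CKI against Baituling (adjusted p 6.11e-14) and, between the single herbs, -0.52 ± 0.038 (adjusted p 3.63e-10). EEF1B2 (chromosome 2, 207024309 to 207027652), a subunit of the factor that recharges EEF1A1 with GTP, stood at 141, 144 and 146 CPM in the CKI libraries, 203, 190.0 and 191 in Kushen and 379, 362 and 359 in Baituling. Where 3 log2 fold changes follow each other they stand in this order of comparisons. The EEF1B2 groups were as separate, and the log2 fold changes were -0.44 ± 0.043, -1.35 ± 0.043 and -0.91 ± 0.042 (adjusted p 2.32e-07, 7.09e-16 and 2.97e-13). EEF1B2 had the largest fall of all members in CKI against Baituling. EEF1D, another subunit of that factor, changed by -0.24, -0.52 and -0.28 in these comparisons, each past the test, though the last was -0.067 with an adjusted p of 0.13 by library totals.

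EEF2 (chromosome 19, 3976054 to 3985461), the translocase, stood at 892, 923 and 953 CPM in the CKI libraries, 955, 1082 and 1071 in Kushen and 1412, 1329 and 1296 in Baituling. Its log2 fold changes were -0.17 ± 0.049 (adjusted p 0.0106), -0.54 ± 0.049 (adjusted p 4.77e-09) and -0.38 ± 0.049 (adjusted p 9.9e-07). The first did not hold in every setting: it was -0.14 with an adjusted p of 0.055 without CKI library 1, -0.14 with 0.061 without Kushen library 2 and -0.091 with 0.078 by library totals. EEF2K (chromosome 16, 22217599 to 22300059), the kinase that phosphorylates and slows eEF2, stood at 21.2, 19.3 and 18.4 CPM in the CKI libraries, 26.4, 28.1 and 30.4 in Kushen and 25.5, 27.3 and 25.2 in Baituling. CKI lay below both single herbs, by -0.52 ± 0.071 against Kushen (adjusted p 1.14e-05) and by -0.40 ± 0.074 against Baituling (adjusted p 5.9e-05), while Kushen and Baituling overlapped. EEF2K had the largest fall of all members in CKI against Kushen, and its difference between the single herbs was 0.12 ± 0.071 (adjusted p 0.136), or 0.17 with 0.0497 without Kushen library 1, 0.33 with 0.000391 by library totals and 0.19 with 0.0215 under upper quartile scaling. With library totals its difference from Baituling in CKI was -0.12 with an adjusted p of 0.16.

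EIF5A (chromosome 17, 7210318 to 7215782), which carries the hypusine residue and helps the ribosome through difficult stretches, stood at 678, 719 and 776 CPM in the CKI libraries, 764, 803 and 771 in Kushen and 1568, 1377 and 1408 in Baituling. CKI and Kushen overlapped, and both lay far below Baituling, by -1.003 ± 0.053 and -0.90 ± 0.053 (adjusted p 1.42e-12 and 1.04e-11). Against Kushen the difference in CKI was -0.11 ± 0.052 with an adjusted p of 0.116, and it passed at -0.16 with 0.029 without CKI library 3, at -0.11 with 0.038 without a filter and at -0.16 with 0.00807 after a correction for transcript length and GC content. EEF1E1, a small scaffold protein of the multisynthetase complex, stood at 29.3, 29.5 and 27.3 CPM in the CKI libraries, 34.2, 29.9 and 27.1 in Kushen and 24.6, 24.2 and 23.1 in Baituling. It was higher than Baituling in CKI by 0.26 ± 0.077 and in Kushen by 0.34 ± 0.077, the only elongation gene that was. A readthrough gene, EEF1E1-BLOC1S5, overlaps it on the same strand.

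TPT1 (chromosome 13, 45907606 to 45915419), which encodes the growth-related protein TCTP, stood at 488, 514 and 520.4 CPM in the CKI libraries, 758, 669 and 689.8 in Kushen and 841, 799.5 and 785 in Baituling. The TMM-scaled groups did not overlap, with CKI lowest. Its fall in CKI was -0.48 ± 0.048 against Kushen (adjusted p 3.19e-07) and -0.67 ± 0.048 against Baituling (adjusted p 1.38e-10), and that in Kushen against Baituling was -0.20 ± 0.047 (adjusted p 0.00104), which turned to 0.016 with library totals. PABPC1 (chromosome 8, 101698044 to 101735037), the main cytoplasmic poly(A)-binding protein and a TOP mRNA, stood at 872, 865 and 916 CPM in the CKI libraries, 1055, 1095 and 1093 in Kushen and 1416, 1432 and 1447 in Baituling. Its log2 fold changes were -0.29 ± 0.038, -0.70 ± 0.038 and -0.41 ± 0.038. Those of its relative PABPC4 were -0.31 ± 0.043, -0.78 ± 0.043 and -0.48 ± 0.042. PABPC4 is not on the TOP list but is on the broad TOP list given below. The 6 values of these 2 genes all passed the test. The ratio of PABPC1 to PABPC4 counts was 6.66 ± 0.15 under CKI, 6.58 ± 0.25 under Kushen and 6.26 ± 0.15 under Baituling (SD, n = 3).

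**Figure D4:**
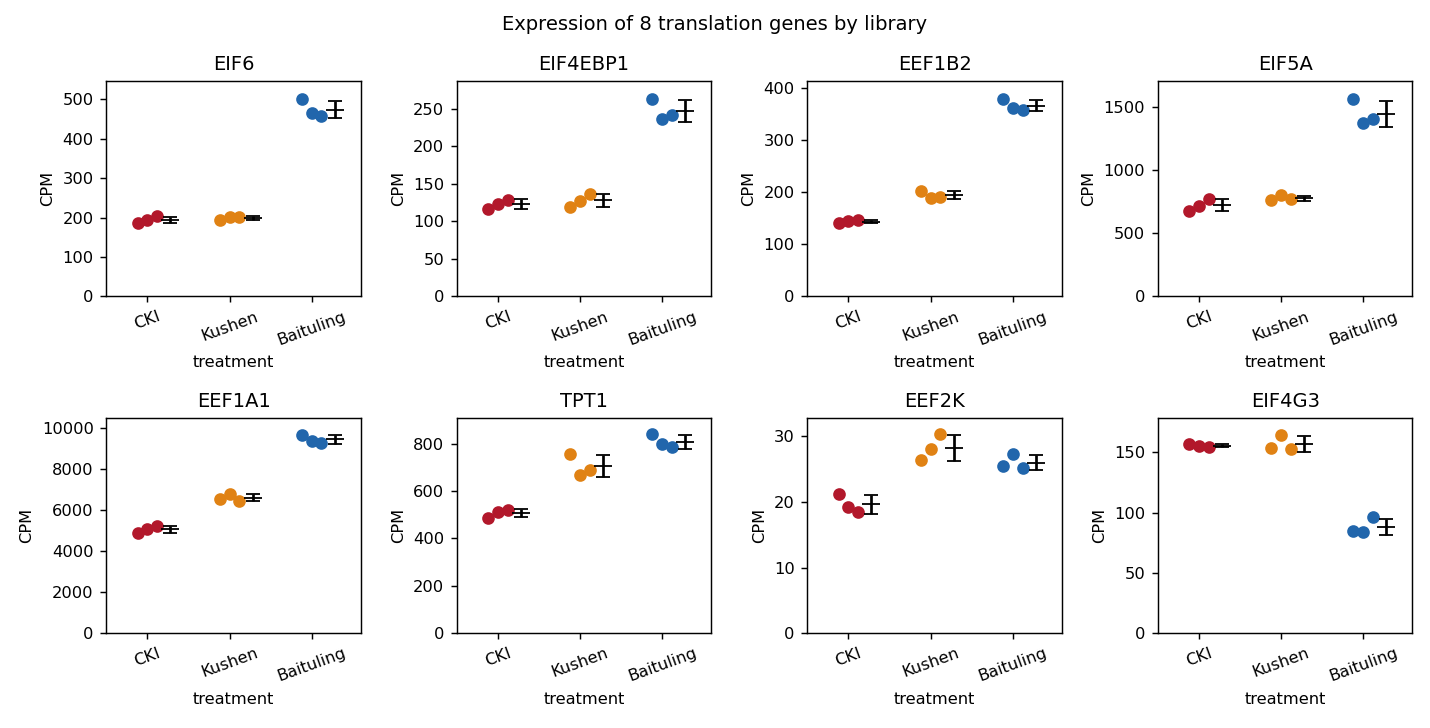
CPM of 8 factors by treatment, with a point for each library and bars at mean ± SD, n = 3. For EIF6, EIF4EBP1 and EIF5A the CKI and Kushen points overlap and Baituling is higher, EEF1B2 and EEF1A1 step up from CKI to Kushen to Baituling, EEF2K is lowest in CKI and EIF4G3 lowest in Baituling.

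The eIF4 factors, which act at the cap, did not move as a group. Of the 8, 1 was higher and 3 lower in CKI than in Kushen. Against Baituling 2 were higher and 5 lower in CKI, and 3 higher and 2 lower in Kushen. In the same order 19.6%, 39.1% and 35.6% of all genes were higher and 20.2%, 37.0% and 36.1% lower. EIF4E (chromosome 4, 99800427 to 99850284), the cap-binding protein, stood at 68.2, 68.9 and 67.4 CPM in the CKI libraries, 67.8, 73.4 and 66.4 in Kushen and 78.1, 75.1 and 79.2 in Baituling. It was lower than in Baituling by -0.18 ± 0.049 in CKI and by -0.16 ± 0.049 in Kushen, but by library totals these values were 0.10 and 0.049, so its direction depended on the scaling. The latter was also -0.093 with an adjusted p of 0.092 under upper quartile scaling. CKI and Kushen overlapped, with a difference of -0.021 ± 0.048 (adjusted p 0.755). EIF4B, a TOP mRNA whose protein aids the helicase, stood at 237, 232 and 241 CPM in the CKI libraries, 291, 296 and 286 in Kushen and 295, 300.3 and 294 in Baituling, so that CKI lay below both herbs and these overlapped. Its fall was -0.30 ± 0.038 against Kushen (adjusted p 6.86e-06) and -0.33 ± 0.039 against Baituling (adjusted p 2.55e-07), the latter -0.039 with 0.34 by library totals, and the herbs differed by -0.029 ± 0.038 (adjusted p 0.504). That difference between the herbs depended on the setting. It was 0.18 with an adjusted p of 0.000185 by library totals and -0.18 with 8.55e-05 after the length and GC correction.

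EIF4A2 (chromosome 3, 186500994 to 186507686), a helicase paralog with a pyrimidine start, had the same order at 317, 318 and 308 CPM in the CKI libraries, 361, 343 and 343 in Kushen and 339, 345 and 369.7 in Baituling. Its log2 fold changes were -0.15 ± 0.043 (adjusted p 0.00904), -0.16 ± 0.043 (adjusted p 0.0024) and -0.010 ± 0.043 (adjusted p 0.845), and library totals put the first at -0.074 with 0.19 and turned those against Baituling to 0.13 and 0.20. Under upper quartile scaling the second was -0.089 with 0.071. EIF4A1 (chromosome 17, 7476142 to 7482324) stood at 9.57, 8.90 and 6.44 CPM in the CKI libraries, 6.52, 4.595 and 5.46 in Kushen and 3.32, 4.44 and 4.03 in Baituling, on the low counts given above. Its values were 0.59 ± 0.15, 1.08 ± 0.17 and 0.50 ± 0.18 (adjusted p 0.00429, 7.84e-06 and 0.0171), although CKI and Kushen libraries overlapped. The last was 0.36 with an adjusted p of 0.087 without Kushen library 1 and 0.39 with 0.084 without Baituling library 1. EIF4H, another aid of the helicase, was lower in CKI than in Baituling by -0.11 ± 0.037 and passed in no other comparison, and library totals turned that value to 0.18, while it was -0.041 with 0.30 under upper quartile scaling and -0.069 with 0.091 with at least 10 counts in every library.

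The eIF4G scaffolds went separate ways. EIF4G1 (chromosome 3, 184032283 to 184053146) stood at 825, 839 and 838 CPM in the CKI libraries, 879, 950.1 and 927 in Kushen and 783, 846 and 822 in Baituling. Kushen was the highest, with log2 fold changes of -0.14 ± 0.042 in CKI against Kushen (adjusted p 0.0118) and 0.17 ± 0.042 in Kushen against Baituling (adjusted p 0.00125), and CKI and Baituling overlapped. The first was -0.12 with an adjusted p of 0.063 without Kushen library 2 and -0.064 with 0.20 by library totals. CKI differed from Baituling by 0.030 ± 0.042 (adjusted p 0.526), or by 0.32 with 3.04e-07 by library totals and 0.10 with 0.0275 under upper quartile scaling. EIF4G2, which lacks the eIF4E-binding site and serves cap-independent initiation, stood at 509, 499 and 506 CPM in the CKI libraries, 494, 488 and 462 in Kushen and 786, 803 and 777 in Baituling, and was lower than Baituling by -0.65 ± 0.039 in CKI and -0.71 ± 0.039 in Kushen. EIF4G3 (chromosome 1, 21132785 to 21503778), a cap-dependent scaffold like EIF4G1, stood at 157, 155 and 155 CPM in the CKI libraries, 153, 165 and 153 in Kushen and 84.9, 84.3 and 96.2 in Baituling. Its direction was the opposite, with rises over Baituling of 0.82 ± 0.051 in CKI and 0.83 ± 0.051 in Kushen (adjusted p 1.95e-11 and 2.23e-11), and CKI and Kushen overlapped. The ratio of EIF4G1 to EIF4G3 counts was 5.36 ± 0.086 under CKI, 5.86 ± 0.18 under Kushen and 9.27 ± 0.75 under Baituling, and that of EIF4G1 to EIF4G2 was 1.65 ± 0.031, 1.91 ± 0.12 and 1.04 ± 0.035.

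The eIF4E-binding proteins, which keep eIF4E from eIF4G until mTORC1 phosphorylates them, changed in opposite directions. EIF4EBP1 (chromosome 8, 37888052 to 37917883) stood at 116, 123 and 129 CPM in the CKI libraries, 119, 128 and 137 in Kushen and 263, 236 and 242 in Baituling. EIF4EBP2 (chromosome 10, 72163901 to 72188374) stood at 133, 129.6 and 137 CPM in the CKI libraries, 133, 142 and 131 in Kushen and 103, 113 and 106 in Baituling. In both genes CKI and Kushen overlapped and lay apart from Baituling, EIF4EBP1 below it and EIF4EBP2 above it. EIF4EBP1 was lower than in Baituling by -1.01 ± 0.055 in CKI and -0.95 ± 0.055 in Kushen (adjusted p 2.71e-12 and 9.65e-12), and EIF4EBP2 was higher by 0.32 ± 0.048 and 0.34 ± 0.048 (adjusted p 6.42e-06 and 2.8e-06). Between CKI and Kushen EIF4EBP1 differed by -0.061 ± 0.056 (adjusted p 0.414). The length and GC correction put that value at -0.11 with 0.0467 and lowered the EIF4EBP2 value in CKI against Baituling to 0.051 with 0.26. The ratio of EIF4EBP1 to EIF4EBP2 counts, free of the scaling, was 0.873, 0.950 and 0.941 in the CKI libraries, 0.898, 0.897 and 1.04 in Kushen and 2.56, 2.09 and 2.29 in Baituling. CKI and Kushen overlapped in it and both lay below every Baituling library.

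**Figure D5:**
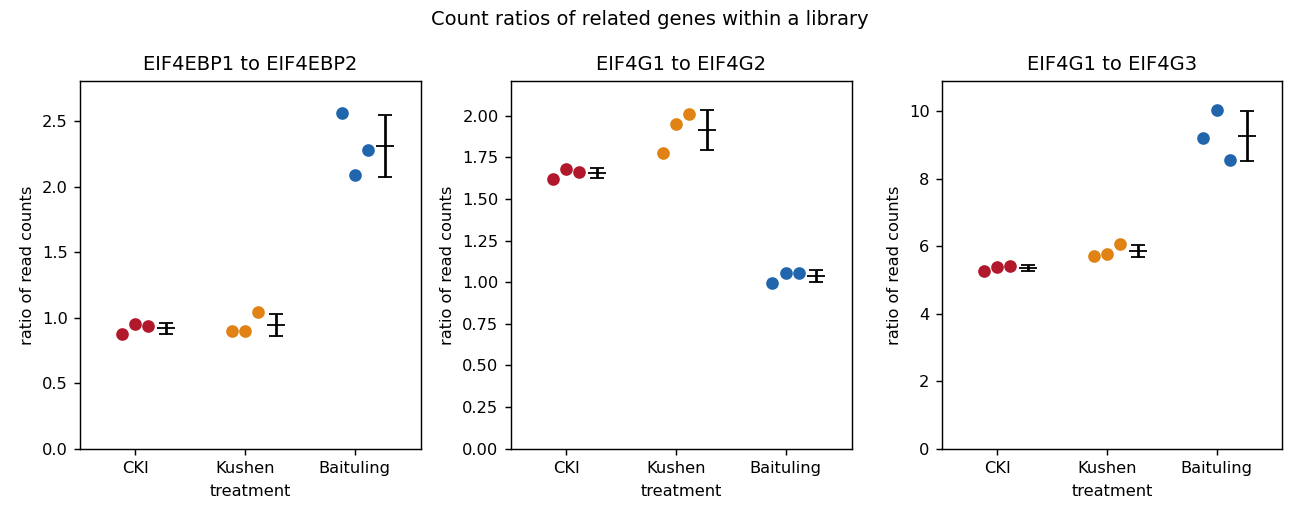
Ratio of read counts of related factors within each library, by treatment, with a point for each library and bars at mean ± SD, n = 3. EIF4EBP1 to EIF4EBP2 and EIF4G1 to EIF4G3 are higher in Baituling than in CKI and Kushen, and EIF4G1 to EIF4G2 is lower in Baituling.

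The eIF3 complex, the largest initiation factor and the platform of the small subunit, was mostly lower than in Baituling. Of its 13 subunits 11 were lower in CKI and 0 higher, with a median of -0.34, and 12 were lower in Kushen and 1 higher, with a median of -0.35. Of all genes 37.0% and 36.1% were lower in these comparisons. In CKI against Kushen 4 were lower and 1, EIF3C, higher, beside 20.2% and 19.6% of all genes. EIF3E, a TOP mRNA, stood at 258, 266 and 267 CPM in the CKI libraries, 340.2, 335 and 331 in Kushen and 436, 423 and 428 in Baituling, and its log2 fold changes of -0.35 ± 0.038, -0.70 ± 0.038 and -0.35 ± 0.038 put CKI lowest and Baituling highest (adjusted p 1.01e-06, 2.55e-12 and 8.17e-08). EIF3G stood at 212, 229 and 225 CPM in the CKI libraries, 215, 233 and 240.3 in Kushen and 400.2, 355 and 359 in Baituling, so that CKI and Kushen overlapped, and was lower than in Baituling by -0.74 ± 0.053 and -0.70 ± 0.053. EIF3K, described above, had the largest fall of the complex against Baituling in CKI, at -0.85 ± 0.047.

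EIF3F and EIF3H, both on the TOP list, had log2 fold changes of -0.13 and -0.088 in CKI against Kushen (adjusted p 0.0158 and 0.0998), the former -0.11 with 0.082 without CKI library 1 and -0.057 with 0.26 by library totals. EIF3L fell below its Kushen level in CKI by -0.17 ± 0.041, or -0.092 with an adjusted p of 0.063 by library totals. EIF3J passed in CKI against Kushen without Kushen library 1, at 0.18 with 0.024, and with library totals, at 0.21 with 0.0096, where its main value was 0.14 with 0.0752. Against Baituling EIF3B, EIF3D, EIF3F, EIF3H, EIF3I, EIF3J, EIF3L and EIF3M were lower in CKI, from -0.22 for EIF3J to -0.59 for EIF3D, and in Kushen, from -0.15 for EIF3L to -0.53 for EIF3D. By library totals EIF3B and EIF3L in CKI came to -0.056 and -0.035 and EIF3B in Kushen to -0.081, past the test no longer. EIF3H, EIF3I and EIF3J turned to 0.028, 0.012 and 0.072 in CKI, and EIF3H and EIF3L to 0.041 and 0.057 in Kushen with that scaling. EIF3A, the largest subunit, differed from Baituling by 0.054 ± 0.044 in CKI (adjusted p 0.27), or 0.34 by library totals and 0.12 under upper quartile scaling, both past the test, and rose over it by 0.15 ± 0.044 in Kushen (adjusted p 0.00471). EIF3C (chromosome 16, 28699879 to 28747048) stood at 8.63, 10.1 and 8.93 CPM in the CKI libraries, 7.32, 5.42 and 7.01 in Kushen and 8.98, 8.17 and 8.67 in Baituling, on the low counts given above. CKI exceeded Kushen by 0.48 ± 0.11 (adjusted p 0.00217), and Kushen differed from Baituling by -0.39 ± 0.12 (adjusted p 0.00681), the latter -0.18 with 0.19 by library totals, a scaling that put CKI above Baituling by 0.38 (adjusted p 0.00477).

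The subunits of eIF2 and eIF2B are the point at which stress kinases hold back initiation. Of the 3 eIF2 subunits 1 was lower in CKI than in Kushen, and 2 were lower than in Baituling in CKI and in Kushen. Of the 5 eIF2B subunits 1 was higher and 1 lower in CKI than in Kushen, and 1 was lower than in Baituling in CKI and 1 in Kushen. Of all genes 19.6% were higher and 20.2% lower in CKI than in Kushen, and 37.0% and 36.1% were lower than in Baituling in CKI and in Kushen. EIF2S1, the subunit that those kinases phosphorylate, passed in no comparison on the TMM scale without the length and GC correction. By library totals it was above Baituling by 0.28 in CKI and 0.22 in Kushen. EIF2S2 and EIF2S3 were lower than in Baituling by -0.29 ± 0.040 and -0.36 ± 0.039 in CKI and by -0.27 ± 0.040 and -0.25 ± 0.039 in Kushen, 4 values that library totals left between -0.0080 and -0.076, none past the test. EIF2S3 in CKI was also below Kushen, by -0.11 ± 0.039 (adjusted p 0.0248), a call lost without CKI library 1, CKI library 2 or Kushen library 2, with adjusted p of 0.066, 0.091 and 0.071, or with library totals (-0.039, adjusted p 0.44). EIF2B2 (chromosome 14, 75469624 to 75479069) stood at 71.9, 73.4 and 73.2 CPM in the CKI libraries, 65.6, 59.7 and 63.5 in Kushen and 77.2, 67.2 and 70.8 in Baituling, so that CKI lay above Kushen. The difference was 0.21 ± 0.053 (adjusted p 0.00399), and that of Kushen against Baituling was -0.19 ± 0.054 (adjusted p 0.00415), or -0.12 with 0.052 without Baituling library 1, -0.12 with 0.055 under upper quartile scaling and 0.023 by library totals. EIF2B5, the catalytic subunit, fell in CKI relative to Kushen by -0.18 ± 0.047 (adjusted p 0.00503) and to Baituling by -0.16 ± 0.048 (adjusted p 0.00498), which library totals put at -0.11 (adjusted p 0.088) and 0.12. EIF2B1, EIF2B3 and EIF2B4 passed in no comparison in the main fit on the TMM scale. In CKI against Baituling EIF2B3 stood there at -0.12 (adjusted p 0.0514). It passed at -0.13 with 0.0388 without a filter and at -0.12 with 0.0394 with only the 2 groups fitted. RLE scaling and DESeq2 put it at -0.14 (adjusted p 0.0275 and 0.0409), while library totals turned it to 0.16. The length and GC correction put EIF2B3 at -0.17 (adjusted p 0.00389) and EIF2B1 at -0.11 (adjusted p 0.0136) in CKI against Baituling. By library totals EIF2B1, EIF2B2 and EIF2B4 were above Baituling in CKI, by 0.29, 0.31 and 0.34, and EIF2B3 in CKI against Baituling became -0.18 with 0.014 without Baituling library 2.

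Factors of start site selection and subunit joining differed between Baituling and the other treatments. EIF6 (chromosome 20, 33866710 to 33872788), which keeps the large subunit from joining too early and serves in its maturation, stood at 187, 194 and 203 CPM in the CKI libraries, 194, 202 and 201 in Kushen and 499, 464 and 458 in Baituling. CKI and Kushen overlapped, and both lay far below Baituling, by -1.28 ± 0.045 and -1.25 ± 0.045 (adjusted p 3.29e-15 and 7.47e-15), with a difference of -0.033 ± 0.045 between them (adjusted p 0.601). The annotation holds another protein-coding gene that overlaps EIF6 on the same strand, and the same holds for EIF5. How the counting treated reads shared with these genes is not given in the sources used here. EIF1, EIF1AX and EIF5, which read the start codon and trigger GTP hydrolysis, were lower than in Baituling by -0.40, -0.33 and -0.50 in CKI and by -0.41, -0.42 and -0.39 in Kushen. The EIF1AX value in CKI was -0.040 with an adjusted p of 0.46 by library totals. EIF5B, the GTPase of subunit joining, was higher than in Baituling by 0.17 ± 0.058 in CKI and 0.25 ± 0.058 in Kushen, the former 0.11 with an adjusted p of 0.11 without CKI library 3 and 0.11 with 0.096 without Baituling library 1. The length and GC correction put the EIF5B value in Kushen at 0.029 with an adjusted p of 0.61. In CKI against Kushen 0 of the 5 passed, against 39.8% of all genes. Without Kushen library 1 EIF1AX did (0.13, adjusted p 0.033), and EIF5 did without CKI library 1 (-0.14, 0.035) or Kushen library 3 (-0.16, 0.014). The release factors ETF1 and GSPT1 passed in no comparison in the main fit on the TMM scale. Values there ran from -0.092 to 0.10 for ETF1 and from -0.029 to 0.064 for GSPT1. With at least 10 counts in every library ETF1 passed in CKI against Kushen (0.11, adjusted p 0.0286) and GSPT1 in Kushen against Baituling (0.097, 0.0495). With only the 2 groups fitted ETF1 passed in CKI against Kushen (0.11, 0.0477). After the length and GC correction ETF1 was lower in Kushen than in Baituling, by -0.26 (2.53e-06). Without Kushen library 2 ETF1 was lower in Kushen than in Baituling by -0.11 (adjusted p 0.048). By library totals both were above Baituling in CKI, by 0.30 and 0.32, and ETF1 above Kushen by 0.18.

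Other genes of the pathway were taken from a list of 46, of which 45 were tested. Their calls are on the TMM scale, and other scalings were not examined for them. Against Kushen 12 were higher and 11 lower in CKI. Against Baituling 18 were higher and 21 lower in CKI, and 18 higher and 17 lower in Kushen. The shares of all genes were 19.6% higher and 20.2% lower, 39.1% and 37.0%, and 35.6% and 36.1% in the same order. The 6 genes of eIF2 kinases and of the phosphatase that reverses them were higher in CKI than in Baituling in 6 of 6 cases, and 5 were higher and 1 lower in Kushen than in Baituling, beside 39.1% and 35.6% of all genes higher. EIF2AK3, which encodes the endoplasmic reticulum stress kinase PERK, stood at 27.5, 26.4 and 26.9 CPM in the CKI libraries, 29.8, 32.9 and 31.1 in Kushen and 13.6, 14.9 and 14.0 in Baituling, and was higher than in Baituling by 0.93 ± 0.069 in CKI and 1.14 ± 0.068 in Kushen. PPP1R15A, the stress-induced subunit GADD34 of that phosphatase, stood at 358, 384 and 376 CPM in the CKI libraries, 189.7, 183 and 199 in Kushen and 275, 279.6 and 296 in Baituling, so that Kushen was the lowest and CKI the highest. CKI differed by 0.97 ± 0.046 from Kushen and by 0.39 ± 0.045 from Baituling, and Kushen by -0.57 ± 0.046 from Baituling.

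Among 11 genes of mTORC1, its kinases and LARP1, 4 were higher and 2 lower in CKI than in Kushen, 4 higher and 6 lower in CKI than in Baituling and 5 higher and 6 lower in Kushen than in Baituling. Over all genes 19.6% were higher and 20.2% lower, 39.1% and 37.0%, and 35.6% and 36.1% in the same order. LARP1, which binds TOP mRNAs, was lower than in Baituling by -0.53 ± 0.046 in CKI and -0.42 ± 0.046 in Kushen, and MTOR, the kinase itself, named outside the rule for these lists, was higher by 0.47 ± 0.055 and 0.33 ± 0.055. DEPTOR, an inhibitor of that kinase, was at group means of 4.18 ± 0.08, 4.10 ± 0.18 and 1.40 ± 0.37 CPM (SD, n = 3) and higher than in Baituling by 1.58 ± 0.18 and 1.56 ± 0.18. Of the others RPTOR, MLST8, AKT1S1, RPS6KB2 and MKNK2 were lower than in Baituling in CKI and in Kushen. RPS6KB1 and MKNK1 were higher in both, and PDCD4 was higher in Kushen only. Other scalings were not examined for these genes. In CKI against Baituling RPTOR, AKT1S1 and MKNK2 stood at -0.18, -0.26 and -0.31, and MLST8 and RPS6KB2 at -0.47 and -0.65. Library totals shifted the overall median of that comparison by 0.29. DOHH and DHPS, which make the hypusine of EIF5A, were lower than in Baituling by -0.56 and -0.55 in CKI and -0.84 and -0.33 in Kushen, the direction of EIF5A itself. In CKI DOHH was above Kushen by 0.28 (adjusted p 0.0242) and DHPS below it by -0.23 (adjusted p 0.000387). Their list of 9 modifying enzymes had 7 lower and 1 higher in CKI than in Baituling, and 6 and 2 in Kushen. DPH6 of that list, at 81 to 168 counts per library, had its smallest adjusted p in CKI against Kushen (-0.85, 3.45e-05). It was lower than in Baituling by -0.77 in CKI and did not pass in Kushen, while DPH3 was higher than in Baituling in both. Of all genes 37.0% were lower and 39.1% higher in CKI, and 36.1% and 35.6% in Kushen. PAIP2B, an inhibitor of poly(A)-binding protein, was higher than in Baituling by 0.83 ± 0.094 in CKI and 0.98 ± 0.093 in Kushen, where PABPC1 was lower.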

How the data were processed

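Total RNA of treated MDA-MB-231 cells was sequenced by the submitters, whose processing notes name Trim Galore 0.3.7, STAR 2.5.3a and the human build hg19. The authors deposited raw whole-number counts per gene, without normalization, and the counting program, its annotation and its handling of shared reads are not given in the sources used here. The libraries carry no strand, so a gene and its antisense neighbour share their reads.

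Of 24566 table rows, 222 repeated a gene and were dropped. GENCODE on GRCh37, the assembly of hg19, named 24224 of the 24344 genes and RefSeq (GRCh38.p14) another 99, leaving 21 unnamed. The filterByExpr function of edgeR 4.0.16 (R 4.3.3; minimum count 10, minimum total 15) kept 14195 genes and removed 10149. The quasi-likelihood model was fitted to the 9 libraries together, with TMM scaling and treatment as the only term, and two-sided p-values were Benjamini-Hochberg adjusted over all genes tested. The common biological coefficient of variation was 4.53%, and the fit was tested on simulated data. With 3 libraries a side the smallest p of an exact permutation is 0.1, and the p-values given are those of the model, which measure the spread between these libraries. Scores over several genes carry no p. A chi-square over the counts of replicate pairs came to 1.70 to 6.85 per gene, so no library was counted as a repeat of another. Scores use log2 CPM with a prior count of 0.5.

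Groups followed the labels. By rule, every library's value was given for members past a log2 fold change of 1, for the 4 largest rises and 4 largest falls called in each comparison and for 12 well-known factors, and in the other pathway lists genes past that fold or with the smallest adjusted p were named. Values of other members were added after the data were seen. The members, the TOP list and the other lists were chosen with earlier results of these data known. Replicate numbers did not pair the libraries: same-numbered libraries correlated at -0.173 to 0.205. Alternatives were other scalings, filters, DESeq2 1.42.0, a replicate block, a length and GC correction, fitting only the 2 groups compared, leaving out each library, other TOP lists and medians over genes. Among single genes only the members were examined under these alternatives, and the ribosomal protein, synthetase and other pathway genes were not.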

Additional observations from a re-analysis of the deposited data

How the results depend on the processing

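The scaling decided most of what moved. With library totals the members called higher and lower were 9 and 10 in CKI against Kushen, 18 and 19 in CKI against Baituling, and 18 higher in Kushen against Baituling, and those beyond a log2 fold change of 1 were 3 and 2 in the comparisons with Baituling. The TOP medians became -0.22, -0.32 and -0.13, and those of the initiation factors outside the TOP list 0.040, 0.087 and -0.0072. Of values past the test in either fit, the sign turned in CKI against Baituling for EIF2S1 (0.28), EIF2B3 (0.16), EIF2B5 (0.12), EIF3H (0.028), EIF3I (0.012), EIF3J (0.072), EIF4A2 (0.13), EIF4E (0.10) and EIF4H (0.18). In Kushen against Baituling it turned for EIF2B2 (0.023), EIF2B3 (0.14), EIF2B4 (0.16), EIF3H (0.041), EIF3L (0.057), EIF4A2 (0.20), EIF4B (0.18), EIF4E (0.049), EIF4H (0.14), TPT1 (0.016) and ETF1 (0.12). Of the 144 member values 71 kept their direction and side of the threshold, and another 15, past the test in neither fit, turned their sign. The 71 compare with 126 under upper quartile scaling and 140 under RLE scaling. Upper quartile scaling gave 9 members higher and 3 beyond the fold in CKI against Baituling, TOP medians of -0.54 and -0.28 against Baituling and medians of -0.13 and -0.15 for the initiation factors outside the list. RLE scaling and DESeq2 both put the TOP median of CKI against Kushen at -0.31.

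A correction for length and GC content gave TOP medians of -0.35, -0.76 and -0.39, medians of -0.088 and -0.26 for the initiation factors outside the list in the comparisons of CKI, 25 members lower in CKI than in Kushen, 3 members higher in CKI than in Baituling and a gap between the classes of -0.18 in Kushen against Baituling. The 8 added as lower in CKI than in Kushen were EIF3A, EIF3B, EIF3D, EIF3H, EIF4H, EIF4EBP1, EIF5 and EIF5A, at -0.10 to -0.16. It turned the sign in CKI against Baituling for EIF2B1 (-0.11), EIF2B2 (-0.18), EIF3A (-0.21), EIF5B (-0.065), ETF1 (-0.20) and GSPT1 (-0.24), and in Kushen against Baituling for EIF2S1 (-0.17), EIF3A (-0.089) and GSPT1 (-0.20). The cause of these changes was not tested. Without a filter the TOP median of CKI against Baituling was -0.68, with EEF1G counted in. With at least 10 counts in every library the TOP medians against Baituling were -0.57 and -0.31, that of the initiation factors outside the list in CKI was -0.16, and 3 members lay beyond the fold.

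A broad TOP list of 18 genes added EIF2S3, EIF3A, EIF3K, EIF3L, EIF3M, EIF4A2 and PABPC4. It gave TOP medians of -0.21 and -0.53 for CKI against Kushen and Baituling, a median of -0.17 for the other initiation factors in CKI against Baituling, and gaps of -0.39 and -0.12 in the comparisons with Baituling. Of the 24 initiation factors outside the broad list 2 were lower and 3 higher in CKI than in Kushen, beside 20.2% and 19.6% of all genes. Sorting by the pyrimidine start, added after the data were seen, gave TOP medians of -0.17, -0.54 and -0.38, medians of -0.12 and -0.16 for the other initiation factors against Baituling and gaps of -0.50 and -0.23. Without EIF4A1 and EIF3C, also added then, the gaps of CKI were -0.25 and -0.38 and the median of the initiation factors outside the list in CKI against Baituling -0.25. Medians over genes in place of means gave gaps of -0.21, -0.34 and -0.13. The gap kept its direction in every setting.

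Leaving out each library in turn kept 844 of 864 member values on their side of the threshold, and those that changed are named above. Members called higher ran from 3 to 5 in CKI against Kushen, 4 to 5 in CKI against Baituling and 6 to 7 in Kushen against Baituling, and members lower from 14 to 18, 33 to 34 and 29 to 31. Beyond the fold were 2 to 5 members in CKI against Baituling, 2 without CKI library 1 or Baituling library 1. The TOP medians ran from -0.31 to -0.28, -0.63 to -0.58 and -0.36 to -0.32. A replicate block changed 0 of the 144 member calls. With the block 3 members were higher and 17 lower in CKI against Kushen, 5 and 33 in CKI against Baituling and 7 and 30 in Kushen against Baituling, and the TOP medians were -0.29, -0.61 and -0.35. At 20144628 or more counts a library, EIF4A1 and EIF3C had the fewest counts of the tested members and so the largest counting error. EEF1E1 and EEF2K came next, at 419 to 850 and 456 to 685 counts per library and with SE of 0.071 to 0.077.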

Other observations

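The 20 cytosolic aminoacyl-tRNA synthetase genes, whose enzymes charge the tRNAs that EEF1A1 delivers, were lower than in Baituling in 15 of 20 cases in CKI and 15 of 20 in Kushen, with 2 and 4 higher, where 37.0% and 36.1% of all genes were lower. In CKI against Kushen 9 were lower and 3 higher, beside 20.2% and 19.6% of all genes. All these calls are on the TMM scale, and other scalings were not examined for the synthetase genes. Their medians against Baituling were -0.27 in CKI and -0.31 in Kushen, where library totals shifted the overall median by 0.29 and 0.21. VARS1, the valyl-tRNA synthetase, stood at 191, 191 and 200.01 CPM in the CKI libraries, 230.2, 255 and 258 in Kushen and 415, 396 and 392 in Baituling. Its libraries did not overlap between treatments, and its log2 fold changes were -0.35 ± 0.047, -1.05 ± 0.047 and -0.69 ± 0.047. RARS1, the arginyl-tRNA synthetase, stood at 161, 167 and 161 CPM in the CKI libraries, 184, 179 and 171 in Kushen and 128, 125 and 124 in Baituling, and was higher than in Baituling by 0.38 ± 0.042 in CKI and 0.51 ± 0.042 in Kushen. Both genes were named after their values were seen.

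Of the ribosome rescue genes PELO, which splits stalled ribosomes with HBS1L, was at 109, 111 and 117 CPM in the CKI libraries, 85.7, 86.2 and 87.0 in Kushen and 74.9, 76.5 and 75.1 in Baituling, and CKI lay above Kushen by 0.38 ± 0.042 and above Baituling by 0.57 ± 0.043. ABCE1, the recycling ATPase, was lower in CKI by -0.25 ± 0.042 and -0.48 ± 0.043 in the same comparisons. EIF1B, a paralog of EIF1, rose in CKI over Kushen by 0.43 ± 0.049 and over Baituling by 0.58 ± 0.050, where the values of EIF1 itself were 0.015 and -0.40. These genes too were named after their values were seen.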
